A study of Mus musculus with 20 samples.

Results

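Microglia isolated 2 weeks after a lateral hemisection (HS) of the spinal cord were compared with microglia isolated 72 h after the same lesion. HS is a cut through one side of the cord, made here at thoracic level 9. The members of the comparison are the 3 HS samples at 72 h and the 3 HS samples at 2 weeks, 6 of the 20 samples of the study, chosen by their labels and followed across all 16810 genes of the deposited table. All groups came from mice of the genotype CX3CR1+/eGFP, which carry 1 copy of enhanced green fluorescent protein (eGFP) in the *Cx3cr1* locus. The sorted mice were males. Those with a lesion were 12 weeks old at surgery, and the age of the NI mice is not given in the sources used here. The comparison groups were non-injured (NI) mice with 3 samples, HS at 1 week with 2 samples, and full transection (FT), a cut through the whole cord, with 3 samples at 72 h and 3 at 2 weeks. The FT group at 1 week entered only the shared estimate of the spread. eGFP-high cells were sorted by flow cytometry from a segment of 1 cm around the lesion, and monocytes and macrophages carry eGFP in these mice as well. The study had more mice than libraries and does not say which mice entered which library, so the p-values measure the spread between these samples. All levels are normalized counts in CPM (counts scaled to a common library size), and fold changes are on the log2(CPM + 0.5) scale.

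Microglia are the resident macrophages of the central nervous system. After an injury they divide, move towards the lesion, take up debris and release cytokines and complement. A dividing cell makes its replication genes in S phase and its mitotic genes in G2 and M phase, and many promoters of the latter carry a CCAAT box and a short element named CHR (cell cycle genes homology region), through which repressor complexes silence them in resting cells. Microglia near damaged tissue can also take on a state known as disease-associated, with genes for lipid handling, phagocytosis and integrins.

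The labelled cell type was checked against its markers before the comparison. Between 4589874 and 8645472 reads per sample lay on the genes of the table at 2 weeks and between 5228935 and 34099232 at 72 h, so that 1 read was worth 0.0330 to 0.214 CPM in these 6 samples. *P2ry12*, *Tmem119*, *Cx3cr1*, *Sall1* and *Csf1r* were present in all 6 samples. *P2ry12*, a purine receptor of resting microglia, had 2489, 2812 and 2052 CPM at 72 h and 2227, 2892 and 2002 CPM at 2 weeks. The libraries were not alike in all respects. *Rpl13* was between 93.6 and 335 CPM in 8 of the 20 samples and between 671 and 1651 CPM in the other 12, and 162 genes differed at least 2-fold between these libraries (limma, adjusted p under 0.05). Replicate 2 of each HS group compared here is among the 8, so that the split is balanced in the comparison, and counts are given below also with a term for it. Replicate 1 at 2 weeks was low in immediate-early genes, which respond within minutes to handling and stimulation. *Fos* had 531, 3731 and 3738 CPM in the samples at 2 weeks and 995, 1362 and 1328 CPM at 72 h.

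From 72 h to 2 weeks more genes fell than rose, and the genes that fell most belonged to cell division. Genes were called if they changed 2-fold or more and their p, adjusted over all genes by Benjamini and Hochberg, was under 0.05. Of 16810 genes, 797 (4.74%) were called, 567 (3.37%) lower and 230 (1.37%) higher at 2 weeks (limma with an intensity trend, all 20 samples). Falls were also deeper. At least 4-fold changes were found in 147 genes that fell and 25 that rose, and at least 8-fold changes in 44 and 3. The median log2 change over all genes was 0.05. The 3 samples at 2 weeks did not overlap the 3 at 72 h in 773 of the 797 called genes, against 29.9% of all genes. With a term for the *Rpl13* split 859 genes were called, among them all 797, and without replicate 2 of both groups 608 were called. Without HS 72 h replicate 1 the number was 517. The split into higher and lower depends on the scaling. When each column was scaled to the same total, 409 genes were higher and 392 lower, and the median over all genes moved from 0.05 to 0.20.

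**Figure D1:**
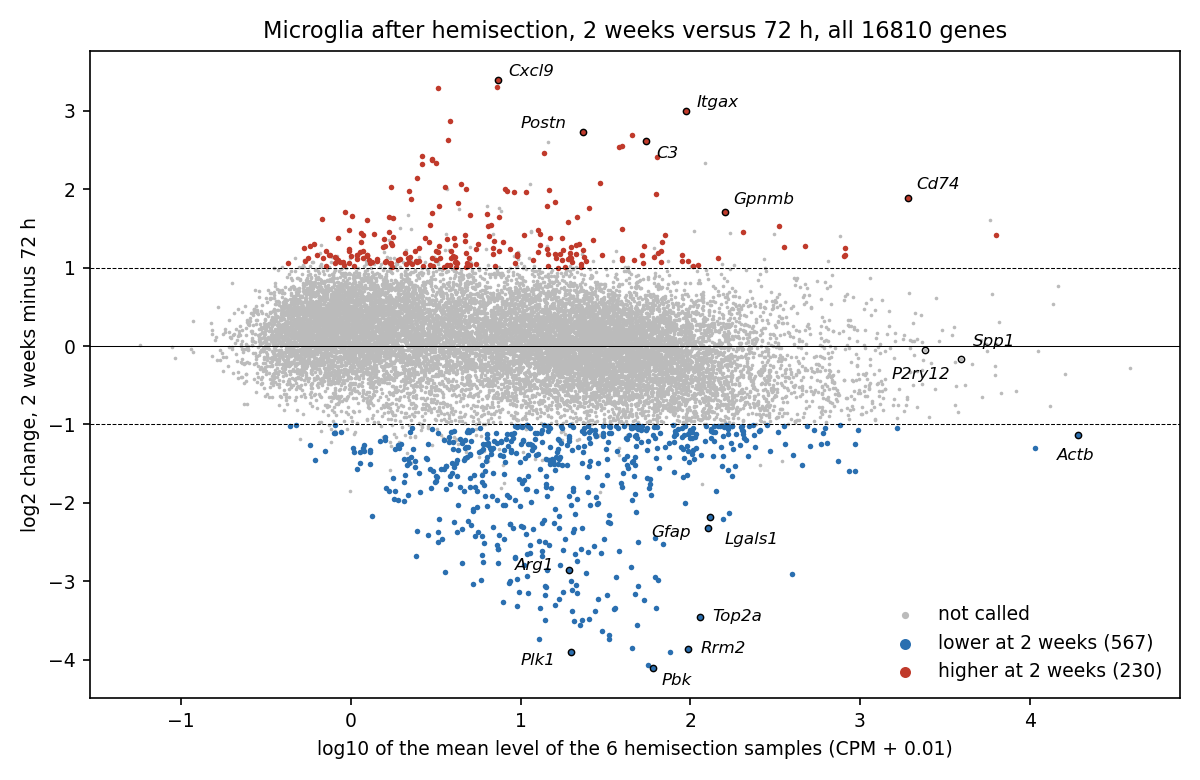
Each point is 1 of 16810 genes, with the log10 of its mean level over the 6 HS samples (CPM + 0.01) on the horizontal axis and its log2 change from 72 h to 2 weeks on the vertical axis. The 567 genes called lower are blue, the 230 called higher are red, dashed lines mark 2-fold, and the blue points reach further from 0 than the red ones.

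Genes of the mitotic spindle, the kinetochore and cytokinesis fell almost without exception. Of the 65 genes of this kind in the table, 62 were called lower and none higher, with a median log2 change of -2.91, against a background of 3.37% of all genes called lower. *Plk1*, a kinase that drives entry into mitosis (chr7:122159439-122169873 in GRCm38), had 47.5, 36.4 and 28.5 CPM at 72 h and 2.18, 1.71 and 2.05 CPM at 2 weeks. The groups were far apart, and the log2 change was -3.91 ± 0.26 (SE, adjusted p = 2.46e-09). *Pbk*, a mitotic kinase, changed most of all genes called lower, from 164, 111 and 69.5 CPM to 4.21, 9.41 and 4.83 CPM, with a log2 change of -4.11 ± 0.28 (adjusted p = 4.83e-09). *Top2a*, which untangles sister chromatids, had 272, 179.7 and 176 CPM at 72 h and 19.8, 20.7 and 14.7 CPM at 2 weeks (log2 change -3.45 ± 0.22, adjusted p = 2.46e-09). *Mki67*, whose protein coats mitotic chromosomes and is the standard mark of dividing cells, went from 139.5, 83.02 and 108 CPM to 15.1, 13.9 and 11.8 CPM. The groups did not overlap in any of these genes. Among the 65, *Pttg1*, *Espl1* and *Incenp* were not called, with log2 changes of 0.53, -0.37 and -0.22. In bulk samples, fewer dividing cells and less RNA of these genes per cell cannot be told apart.

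Cyclins and their kinases were lower in part. Of 16 listed genes 9 were called lower and none higher (median log2 change -1.93). *Ccnb1*, cyclin B1 of mitosis, had 149.9, 92.7 and 77.5 CPM at 72 h and 6.71, 5.56 and 4.83 CPM at 2 weeks (log2 change -4.07 ± 0.31, adjusted p = 1.81e-08). *Cdk1*, the kinase it activates, had 142, 121 and 82.2 CPM and then 12.2, 15.2 and 14.01 CPM. The E-type cyclins *Ccne1* and *Ccne2* had log2 changes of -1.83 and -2.03. Among the transcription factors of the cycle 7 of 14 were called lower, with *E2f8* (log2 change -3.32) and *Foxm1* (-2.53) at the head. Without replicate 2 of both groups this count was 4. *E2f1*, an activator of S phase genes, had 24.8, 26.9 and 24.8 CPM at 72 h and 12.3, 4.06 and 12.4 CPM at 2 weeks. Of 11 inhibitors of the cycle *Cdkn2d* and *Wee1* were called, both lower, while *Cdkn1a* (p21) had 62.6, 122 and 107 CPM and 31.03, 63.1 and 89.9 CPM and was not called. Of 18 p53 targets 1 was called, *Perp*, which was lower, and the median of the list was -0.02. That is 5.56% of the list, against 4.74% of all genes called. The call was lost without HS 72 h replicate 1 or replicate 2.

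**Figure D2:**
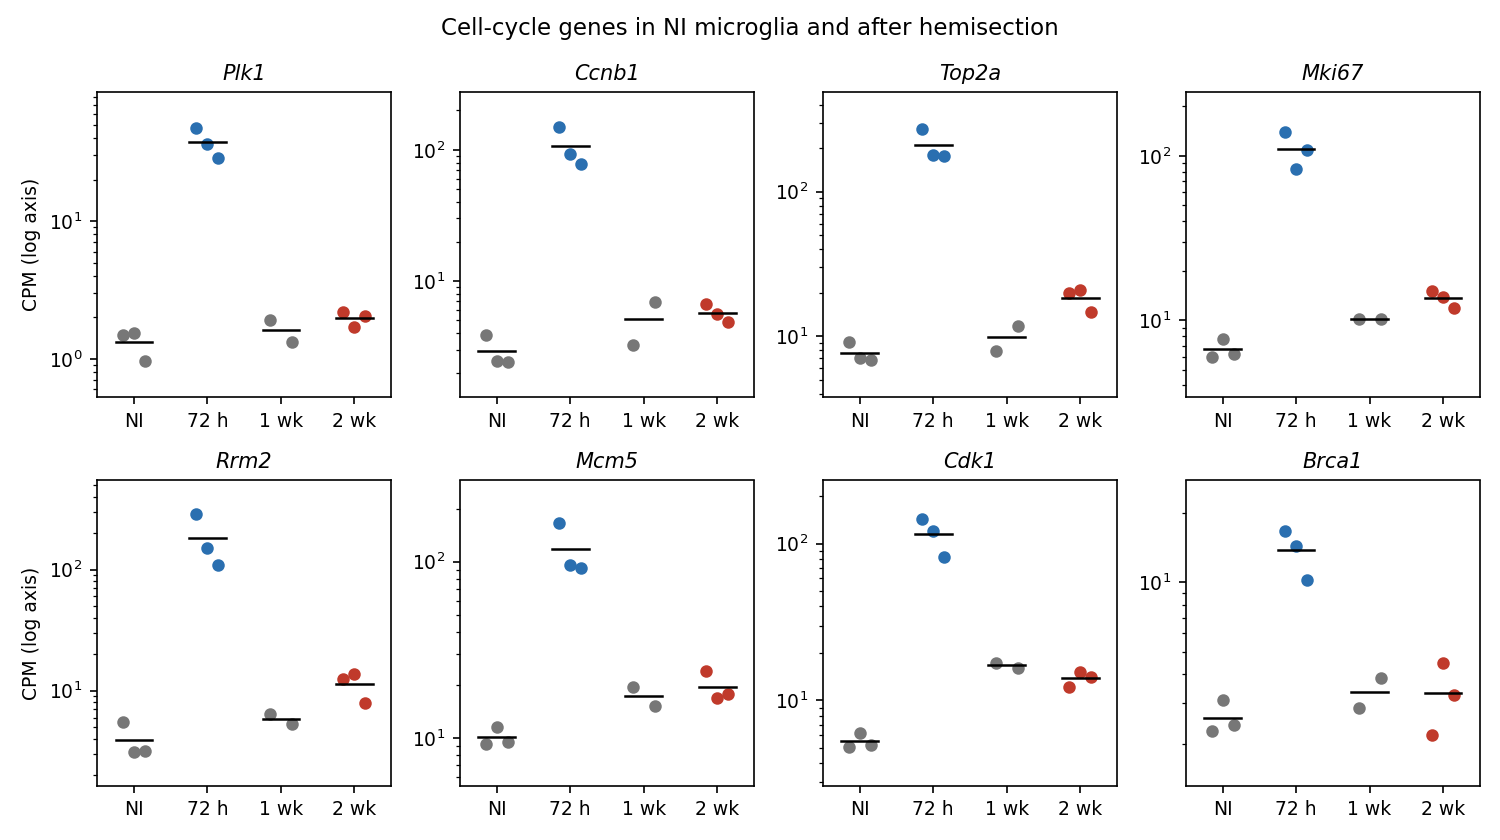
Each panel shows 1 gene, with CPM on a log axis for every sample in NI mice and at 72 h (blue), 1 week and 2 weeks (red) after HS, and the group mean as a bar. In all 8 genes the samples at 72 h lie above every sample of the other groups shown.

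Promoters were searched for short elements known from cell-cycle genes. RefSeq promoter windows of GRCm38.p6, from 250 bases before to 50 bases after a start site, were searched on both strands. Of the 65 mitotic genes 56 had an entry, with 61 windows. The CHR element, written as TTTGAA or TTCGAA, was present in 75.4% of these windows, against 14.9% of the 16331 windows of genes in the table. The CCAAT box, written as CCAAT, was in 72.1% against 37.3%, and both were in 59% against 5.94%. Of the 48 DNA replication genes 39 had an entry, with 47 windows, and 34% of these held an E2F element (TTTCCCGC, TTTCGCGC, TTTGCCGC or TTTGGCGC) against 3.44%. The CHR element stood in 21.3% of the replication windows and 33.3% of the 12 windows of cyclins and kinases. Among homologous recombination genes it was in 15% of 20 windows, near the 14.9% of the table, and none of these windows held CHR together with CCAAT. Over all genes called lower, with 523 windows for 448 of the 567 genes, CHR was in 28.1%, CCAAT in 50.9% and E2F in 9.56%. These include genes of the cell-cycle lists. Outside those lists, 344 of 438 lower genes had an entry, with 403 windows. CHR was in 21.1% of them, CCAAT in 46.4% and E2F in 6.95%, against 14.9%, 37.3% and 3.44% for the table. The lists hold genes that were not called, and a match of letters is no evidence that a factor binds there. These windows share bases between transcripts of the same gene and overlapping matches were each counted. The following 4 mitotic promoters and 1 replication promoter are shown as examples that hold these letters. The sequences run 5′ to 3′ on the strand of the gene, with CHR, CCAAT and E2F letters on either strand in capitals.
Plk1 (chr7:122159185-122159484, plus strand): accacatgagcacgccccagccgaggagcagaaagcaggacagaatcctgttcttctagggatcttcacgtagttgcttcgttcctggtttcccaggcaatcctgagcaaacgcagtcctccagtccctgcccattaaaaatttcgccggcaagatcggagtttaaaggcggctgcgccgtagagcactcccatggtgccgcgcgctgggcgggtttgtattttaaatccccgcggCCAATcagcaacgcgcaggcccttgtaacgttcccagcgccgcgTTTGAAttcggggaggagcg
Ccnb2 (chr9:70421505-70421804, minus strand): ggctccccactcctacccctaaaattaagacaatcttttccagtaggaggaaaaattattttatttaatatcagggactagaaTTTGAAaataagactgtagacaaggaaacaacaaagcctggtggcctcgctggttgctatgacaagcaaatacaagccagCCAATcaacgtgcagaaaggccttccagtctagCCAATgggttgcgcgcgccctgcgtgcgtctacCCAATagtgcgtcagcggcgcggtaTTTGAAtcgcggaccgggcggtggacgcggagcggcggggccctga
Ube2c (chr2:164769679-164769978, plus strand): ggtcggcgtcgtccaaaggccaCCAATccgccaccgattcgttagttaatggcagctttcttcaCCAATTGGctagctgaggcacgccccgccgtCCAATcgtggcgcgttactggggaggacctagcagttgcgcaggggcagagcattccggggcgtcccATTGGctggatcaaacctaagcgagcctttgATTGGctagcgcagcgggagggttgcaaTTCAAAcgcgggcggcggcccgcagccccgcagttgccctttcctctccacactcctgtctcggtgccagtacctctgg
Top2a (chr11:99024140-99024439, minus strand): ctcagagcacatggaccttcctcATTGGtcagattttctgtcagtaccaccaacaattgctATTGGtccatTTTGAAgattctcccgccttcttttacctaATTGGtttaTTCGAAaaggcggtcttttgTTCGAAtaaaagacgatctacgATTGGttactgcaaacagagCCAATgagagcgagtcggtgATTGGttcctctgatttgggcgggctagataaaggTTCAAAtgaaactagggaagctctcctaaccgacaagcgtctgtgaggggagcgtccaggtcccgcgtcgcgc
Mcm5 (chr8:75109259-75109558, plus strand): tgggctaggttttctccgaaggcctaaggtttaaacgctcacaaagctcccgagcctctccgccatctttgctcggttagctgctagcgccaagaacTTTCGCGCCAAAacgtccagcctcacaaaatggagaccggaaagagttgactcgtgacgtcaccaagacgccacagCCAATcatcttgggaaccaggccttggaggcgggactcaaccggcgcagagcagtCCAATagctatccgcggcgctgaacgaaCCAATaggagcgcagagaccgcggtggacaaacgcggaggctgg

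*Ccnb2*, cyclin B2, and *Ube2c*, the ubiquitin-conjugating enzyme that sends cyclins to the proteasome at the end of mitosis, fell with *Plk1* and *Top2a*. *Ccnb2* had 141, 52.8 and 62.5 CPM at 72 h and 5.15, 3.85 and 5.92 CPM at 2 weeks, and *Ube2c* had 71.1, 67.5 and 48.4 CPM and 5.15, 2.99 and 5.19 CPM. Both were lower in all 3 samples at 2 weeks. Large falls were also found in genes whose windows lack these letters. The window of *Ccnb1* held CCAAT and no CHR, that of *Rrm2*, described below, held CCAAT and neither CHR nor E2F, and those of *Nusap1* (log2 change -3.74) and *Tk1* (-3.24) held none of the 3.

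Genes that copy DNA had a smaller median change than the mitotic genes. Of 48 replication genes 35 were called lower and none higher, and the median log2 change was -1.51. *Rrm2*, the ribonucleotide reductase subunit that limits the supply of deoxynucleotides, had 289, 152 and 108 CPM at 72 h and 12.5, 13.7 and 7.97 CPM at 2 weeks (log2 change -3.86 ± 0.32, adjusted p = 3.56e-08). *Mcm5*, a subunit of the replicative helicase, had 166, 95.8 and 92.3 CPM and 24.01, 16.9 and 17.8 CPM (log2 change -2.53 ± 0.27, adjusted p = 1.23e-06). *Pcna*, the sliding clamp, had 250.1, 229 and 147 CPM at 72 h and 84.5, 148 and 105 CPM at 2 weeks. Its groups overlapped by replicate 2 of the later time and it did not reach 2-fold (log2 change -0.89). Enzymes that supply nucleotides and one-carbon units were lower in 6 of 22 cases. *Psat1*, of serine synthesis, had 257, 182 and 158 CPM and 75.5, 71.4 and 73.4 CPM, and *Paics*, of purine synthesis, had 294, 212 and 180.0 CPM and 106, 113 and 104 CPM. Without HS 72 h replicate 1, 2 of these 22 were called.

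Homologous recombination genes, which mend broken DNA after replication, were lower in 13 of 27 cases, with a median log2 change of -1.06. *Brca1*, a repair and checkpoint gene that the study followed in microglia, had 16.6, 14.4 and 10.3 CPM at 72 h and 2.18, 4.49 and 3.26 CPM at 2 weeks (log2 change -1.92 ± 0.26, adjusted p = 4.09e-05). NI samples had 2.26, 3.09 and 2.398 CPM of it, and at 1 week its samples had 2.86 and 3.85 CPM. *Brip1* and *Bard1*, which encode partners of its product, had log2 changes of -1.11 and -1.09. Without HS 72 h replicate 1 the count was 7, and the calls of *Brip1*, *Bard1*, *Fancd2* and *Fanci* were among those lost.

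Genes for energy and protein turnover had negative log2 changes, in most cases short of the 2-fold limit. All 73 subunits of oxidative phosphorylation in the table had a negative log2 change, with a median of -0.81, and 13 were called lower. *Ndufa4* had 226, 242 and 180.0 CPM at 72 h and 84.4, 106 and 99.5 CPM at 2 weeks (log2 change -1.15 ± 0.20, adjusted p = 6.33e-04), and *Cox6c* had 256, 233 and 198 CPM and 94.3, 124 and 97.7 CPM. When the columns were scaled to the same total, none of the 73 was called and the median was -0.62. The number called was 6 without HS 72 h replicate 1 or replicate 2, 7 without HS 2 weeks replicate 1, and 28 without HS 72 h replicate 3. Of 78 ribosomal protein genes none was called by limma, edgeR or DESeq2 (53 at an unadjusted p under 0.05), and 77 had a negative log2 change (median -0.56). For the ribosomal proteins reads can be split between near-identical copies, and *Rpl13* is one of them. Of 34 proteasome subunits *Psma1* was called lower and all 34 had a negative log2 change (median -0.62). The call of *Psma1* was lost under quantile normalization and under scaling to the same total, where the median was -0.44. The list of cholesterol synthesis (24 genes, median -0.02) and that of ribosome biogenesis (20 genes, median -0.08) had no called member by limma, edgeR or DESeq2, with 2 and 3 genes at an unadjusted p under 0.05. Single members were called lower in glycolysis (*Eno1*, 1 of 18), the pentose phosphate pathway (*Rpe*, 1 of 8), the hypoxia targets (*P4ha2*, 1 of 16) and the purine receptors and ectonucleotidases (*Nt5e*, 1 of 13). Over all genes 3.37% were called lower. The calls of *Eno1* and *Rpe* were lost without replicate 1 or replicate 2 of either group, and without replicate 2 of both groups. They were also lost under quantile normalization and under scaling to the same total. That of *Rpe* was lost without HS 2 weeks replicate 3 as well. Of 14 heat-shock genes *Hspa1a* and *Hspa1b*, near-identical copies, were higher. Both calls were lost when any 1 of 5 samples was left out (all but HS 72 h replicate 3), under quantile normalization, and by the edgeR quasi-likelihood test and DESeq2. Of the 14 genes, 1 was called higher without HS 2 weeks replicate 1, by the quasi-likelihood test and by DESeq2. By limma none of 20 immediate-early genes, 21 of endoplasmic reticulum stress and 15 of iron and heme handling was called, with 1, 5 and 9 at an unadjusted p under 0.05. Of the 20 immediate-early genes 19 had a positive log2 change (median 0.76). Without HS 2 weeks replicate 1, the sample low in these genes, the median was 1.37 and 2 were called higher. The edgeR likelihood ratio test called 1 immediate-early gene and 1 of endoplasmic reticulum stress higher and 2 of iron handling lower. The edgeR quasi-likelihood test called 1 of endoplasmic reticulum stress higher, and DESeq2 called the same number, with 1 of iron handling lower.

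Some antioxidant and cytoskeletal genes fell. Of 23 antioxidant genes 6 were called lower. *Gpx3*, a secreted glutathione peroxidase, had 57.6, 72.7 and 56.4 CPM at 72 h and 16.7, 15.2 and 20.8 CPM at 2 weeks (log2 change -1.80 ± 0.20, adjusted p = 3.13e-06). *Gpx1* had 1090.5, 1293 and 884 CPM and 363, 363 and 453 CPM. *Sod1*, *Txn1* and *Prdx2* were lower too. Of 24 genes of actin, tubulin and intermediate filaments 7 were called lower. *Tubb5*, a beta-tubulin, had 1876, 1084 and 957 CPM at 72 h and 397, 434 and 413 CPM at 2 weeks (log2 change -1.59 ± 0.21, adjusted p = 1.82e-05), with the caution that tubulin copies share sequence. *Actb*, often taken as a steady reference, had 28530.5, 28033 and 23169 CPM and 10981, 13559.6 and 11669 CPM. Its call (adjusted p = 0.018) was lost when HS 72 h replicate 1 or 2 or HS 2 weeks replicate 1 or 3 was left out, and under scaling to the same total. Without replicate 2 of both groups 4 of the 24 were called.

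Annexins, S100 proteins and galectins were lower in 8 of 19 cases. *Lgals1*, galectin-1, a secreted lectin, had 283, 209 and 151 CPM at 72 h and 37.7, 37.6 and 49.2 CPM at 2 weeks (log2 change -2.32 ± 0.26, adjusted p = 2.11e-06). *S100a4* had 10.7, 9.800 and 10.9 CPM and 2.49, 1.92 and 0.483 CPM. *S100a6*, *S100a10*, *S100a11*, *S100a13*, *Anxa1* and *Anxa2* completed the 8. In the same list *Lgals3bp*, which encodes a galectin-3 binding protein, was higher, from 453, 551 and 509 CPM to 1192, 919.9 and 1297 CPM (log2 change 1.16 ± 0.24, adjusted p = 0.00307). The count of lower members was 4 without replicate 2 of both groups and 5 under scaling to the same total.

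Of the genes that rose, several attract and instruct lymphocytes. *Cxcl9*, an interferon-induced chemokine for T cells (chr5:92321347-92328079), had 0.793, 1.22 and 0.615 CPM at 72 h and 10.9, 16.03 and 14.7 CPM at 2 weeks (log2 change 3.39 ± 0.27, adjusted p = 3.32e-08). *Cxcl13*, which attracts B cells, had 1.06, 1.41 and 0.4100 CPM and 17.3, 13.5 and 10.02 CPM (log2 change 3.31 ± 0.32, adjusted p = 2.98e-07). *Ccl5* had 11.5, 13.2 and 10.9 CPM and 83.9, 77.8 and 75.1 CPM (log2 change 2.69 ± 0.26, adjusted p = 3.98e-07). Each was higher in all 3 later samples, and in NI mice *Ccl5* had 7.69, 10.3 and 10.9 CPM, near its level at 72 h. *Cxcl14* and *Ccl22* rose too. Of 14 CXC chemokines and receptors 3 were called higher and none lower, and of 15 CC chemokines and receptors 2 were called higher. The call of *Ccl22* was lost without HS 2 weeks replicate 1 or HS 72 h replicate 2. Background was 1.37% of all genes called higher. In the same list 3 genes were lower, namely the receptors *Ccr1* (72.4, 86.4 and 75.03 CPM, then 14.7, 18.6 and 19.7 CPM) and *Ccr2* (34.6, 81.1 and 100.2 CPM, then 23.4, 22.2 and 16.5 CPM) and the ligand *Ccl24*. The call of *Ccr2*, a receptor of inflammatory monocytes, was lost without HS 72 h replicate 2 or 3 or HS 2 weeks replicate 3.

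**Figure D3:**
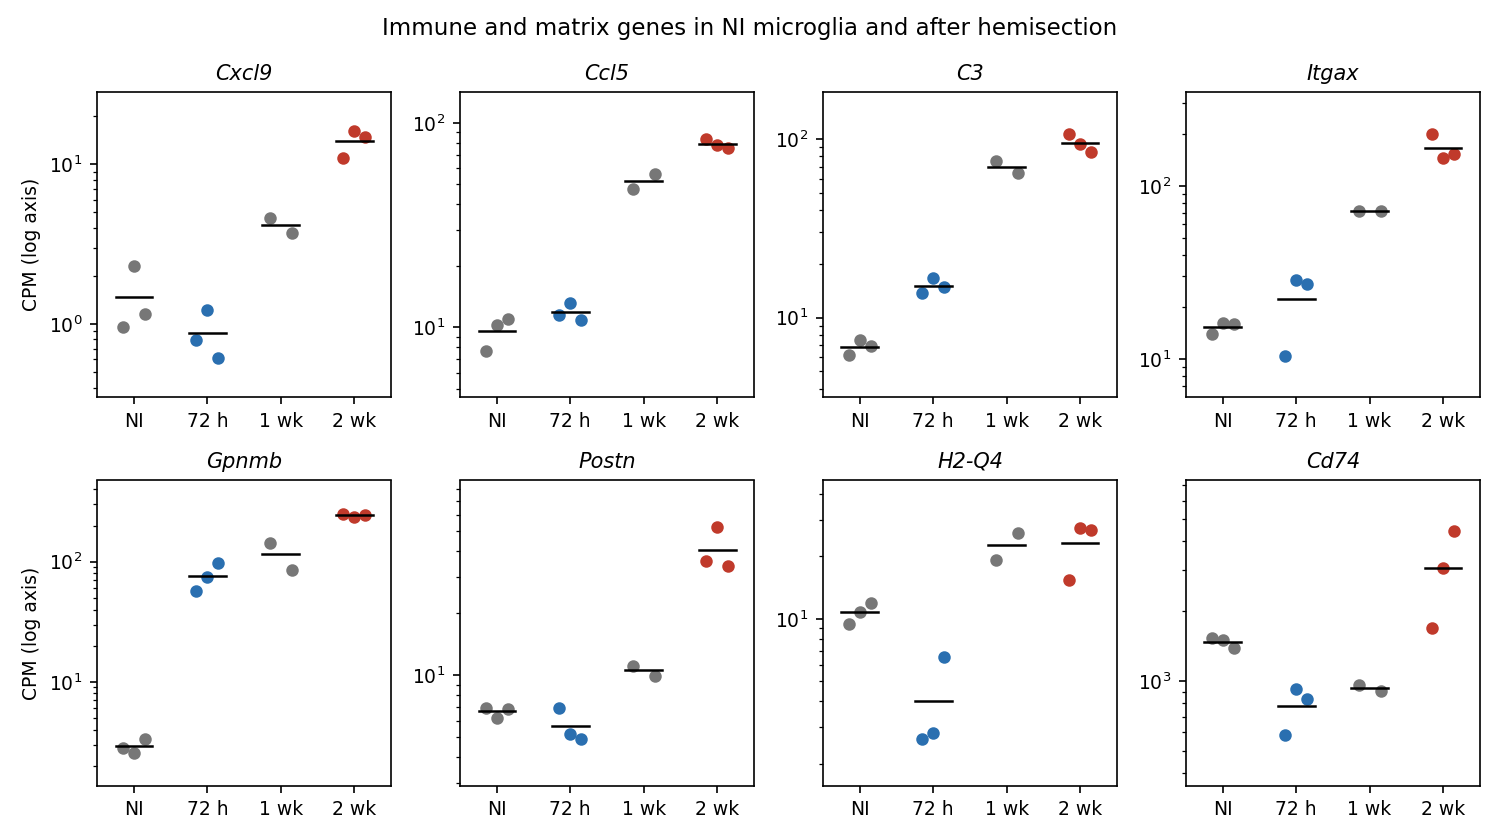
Each panel shows 1 gene, with CPM on a log axis for every sample in NI mice and at 72 h (blue), 1 week and 2 weeks (red) after HS, and the group mean as a bar. In all 8 genes the 3 samples at 2 weeks lie above the 3 at 72 h, and in *H2-Q4* and *Cd74* the NI samples lie above those at 72 h.

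Some genes of antigen presentation rose, in both classes. Of 14 genes of MHC class II presentation 4 were called higher (median log2 change 0.48), and of 16 genes of class I and the immunoproteasome 3 were called higher (median 0.65). *Cd74*, the invariant chain that guides class II molecules, had 586, 922 and 835 CPM at 72 h and 1700.0, 3086 and 4415 CPM at 2 weeks (log2 change 1.89 ± 0.39, adjusted p = 0.00332). NI mice had 1535, 1505 and 1393 CPM, between the values at the 2 times. *H2-Aa*, an alpha chain of class II, had 105, 224 and 182 CPM and 284, 583 and 631 CPM, and *H2-Eb1* and *H2-Oa* were the other members called. The calls of *H2-Aa* and *H2-Eb1* were lost without HS 72 h replicate 1 and without HS 2 weeks replicate 2 or 3, which left 2 of the 14 called. *H2-K1*, a classical class I gene, had 349.6, 583 and 527 CPM at 72 h and 912, 1115 and 1431 CPM at 2 weeks (log2 change 1.25 ± 0.22, adjusted p = 6.15e-04). *Nlrc5*, the activator of class I transcription, rose from 12.6, 13.2 and 18.7 CPM to 32.7, 46.4 and 36.7 CPM. *H2-Q4* had the largest change of the list, from 2.64, 2.83 and 6.56 CPM to 15.4, 27.6 and 26.9 CPM, but H2-Q genes are close copies between which reads may be split. Under scaling to the same total and under quantile normalization 7 of the 16 class I genes were called, and 5 without replicate 2 of either group. Of 44 interferon-stimulated genes limma called *Ifi27l2a*, which was lower, and this call was lost without replicate 2 of both groups. The edgeR tests and DESeq2, and limma with the *Rpl13* term, called 1 gene higher and 1 lower.

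Complement and integrin genes held some of the largest rises. *C3*, the central complement protein, had 13.8, 16.8 and 14.8 CPM at 72 h and 106, 94.1 and 84.7 CPM at 2 weeks (log2 change 2.61 ± 0.21, adjusted p = 3.07e-08). *Itgax*, the CD11c integrin that with its beta chain forms a complement receptor (chr7:128129547-128150657), had 10.4, 28.7 and 27.1 CPM and 201, 145 and 153 CPM (log2 change 3.00 ± 0.28, adjusted p = 1.98e-07). Neither gene had overlapping groups. Of 21 complement genes these 2 were higher and 1 was lower. Of the 20 integrin and adhesion genes *Itgax*, *Vcam1* and *Alcam* were called, all higher.

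Of 26 genes of the disease-associated state 6 were called higher and none lower, with a median log2 change of 0.50. These were *Itgax*, *Gpnmb*, *Cst7*, *Axl*, *Lpl* and *Igf1*. *Gpnmb*, a glycoprotein of phagocytes, had 57.1, 74.2 and 97.6 CPM at 72 h and 252, 237 and 244 CPM at 2 weeks (log2 change 1.71 ± 0.29, adjusted p = 5.76e-04), against 2.801, 2.57 and 3.36 CPM in NI mice. *Axl*, a receptor for apoptotic cells, had 144, 255 and 246 CPM and 576, 455 and 479 CPM, while *Gas6*, the gene of its ligand, fell from 127, 72.7 and 72.6 CPM to 41.01, 19.7 and 41.5 CPM. *Igf1*, a growth factor, had 67.5, 127 and 85.1 CPM and 205, 232 and 161 CPM. The calls of *Axl*, *Cst7* and *Igf1* were lost without HS 72 h replicate 1, the lowest of its group in each, and 3 members were then called. Other members of the state were high at both times. *Spp1*, osteopontin, had 3789, 5235 and 3460.0 CPM at 72 h and 3499, 4389.9 and 3206 CPM at 2 weeks against 79.4, 94.8 and 108 CPM in NI mice, and was not called (log2 change -0.16 ± 0.25). *Apoe* had 2384, 927 and 5265 CPM and 17046, 2878 and 6650.3 CPM, with groups that overlap and replicate 2 the lowest at both times (log2 change 1.60 ± 0.78, adjusted p = 0.2).

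Genes of lipoproteins and lipid uptake rose in 3 of 17 cases. *Apoc1* had 32.1, 47.4 and 37.5 CPM at 72 h and 108, 91.3 and 112 CPM at 2 weeks (log2 change 1.41 ± 0.21, adjusted p = 8.79e-05), while NI samples had 2.26, 2.45 and 2.21 CPM. *Apoc4* had 3.63, 9.14 and 4.72 CPM and 26.2, 17.5 and 26.9 CPM, and *Lpl*, lipoprotein lipase, had 441, 573 and 491 CPM and 1362, 1060.3 and 929 CPM. The call of *Lpl* was lost without HS 2 weeks replicate 1. Scavenger receptors went both ways, with 2 of 17 higher and 4 lower. *Colec12* had 5.42, 7.07 and 7.38 CPM and 33.1, 18.8 and 24.2 CPM, whereas *Stab1* had 816, 592 and 741 CPM and 310.3, 265 and 308 CPM. *Cd5l*, *Cd163* and *Msr1* were lower and *Olr1* was higher. *Cd163* is also a marker of border-associated macrophages, described below. The largest rise of this list (log2 change 1.83) is that of their list as well, so the lists are not separate. The calls of *Msr1* and *Cd163* did not hold when single samples of either group were left out, and that of *Olr1* was lost without HS 72 h replicate 1. Lysosomal genes were called in few cases. Of 48 members *Atp6v0d2*, a subunit of the proton pump, was higher and *Gusb* lower, 4.17% against 4.74% of all genes. The call of *Gusb* was lost without replicate 2 of either group or of both. It was also lost under quantile normalization and under scaling to the same total.

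Matrix genes were lower in 6 of 26 cases and higher in 1. The exception was *Postn*, periostin, a protein of scar matrix, with 6.97, 5.18 and 4.92 CPM at 72 h and 35.9, 52.4 and 34.1 CPM at 2 weeks (log2 change 2.72 ± 0.24, adjusted p = 8.24e-08). Its samples at 1 week had 11.2 and 9.98 CPM and those of NI mice 6.97, 6.18 and 6.91 CPM. *Col3a1*, a fibrillar collagen, had 33.3, 6.69 and 17.02 CPM and 2.34, 2.99 and 2.42 CPM, and HS 72 h replicate 1 was the highest. *Tgfbi*, *Thbs1*, *Lamb2*, *Emilin2* and *Col6a1* were the other members called lower, and 2 of the 6 falls were called without replicate 2 of both groups. *Mmp12*, the macrophage elastase, rose from 4.56, 15.8 and 16.8 CPM to 82.5, 64.99 and 52.7 CPM (log2 change 2.55 ± 0.32, adjusted p = 1.38e-05). Of 20 matrix proteases and inhibitors *Mmp12* and *Plaur* were higher and 1 was lower. Of 19 secreted growth and angiogenic factors 3 were higher (*Igf1*, *Pdgfa* and *Pdgfb*) and *Gas6* was lower. *Pdgfa* and *Pdgfb*, growth factors of the platelet-derived family, rose by 1.18 and 1.16 on the log2 scale, and both calls were lost without HS 72 h replicate 1.

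The inflammatory lists of the study were chosen on these samples, so their counts are no independent evidence. Of its 12 pro-inflammatory genes *Cxcl9* and *Mmp12* were higher and *Ifitm1* and *Ifitm2*, which are close copies, were lower. Of its 9 anti-inflammatory genes *Arg1* and *Msr1* were lower and *Il1rn* and *Igf1* were higher. *Arg1*, arginase 1, had 20.1, 40.5 and 38.1 CPM at 72 h and 0.624, 9.62 and 7.13 CPM at 2 weeks (log2 change -2.85 ± 0.61, adjusted p = 0.00388). Replicate 1 was the lowest at each time. *Arg1* is also in the list of monocytes and infiltrating macrophages described below. The study cites a report proposing that after spinal cord injury infiltrating macrophages express it and microglia do not. *Il1rn*, the interleukin-1 receptor antagonist, had 15.6, 46.8 and 38.95 CPM and 52.1, 71.8 and 87.2 CPM, and its call was lost without HS 72 h replicate 1 or HS 2 weeks replicate 2 or 3. *Il18bp*, which encodes a decoy for interleukin-18, was the other of 12 genes of the interleukin-1 family and inflammasome called higher, and its call was lost without the same samples. *Tnf* and *Il1b* were not called, with log2 changes of -0.03 ± 0.68 and 0.29 ± 0.71 (SE). *Relb* and *Nfkbie*, of the NF-kB pathway, rose by 1.13 and 1.13, *Nfkbie* with its call lost without HS 2 weeks replicate 3. Among 15 inhibitory receptors and checkpoint ligands *Cd22* and *Cd274* (PD-L1) were higher, at 15.4, 30.4 and 30.1 CPM and then 48.3, 65.6 and 47.6 CPM for *Cd274*, whose call was lost without HS 72 h replicate 1 or HS 2 weeks replicate 2.

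No homeostatic gene of microglia was called by limma. Of 30 members none passed (9 at an unadjusted p under 0.05), while both edgeR tests and DESeq2 each called 1 lower. Of the 30, 6 lay below and 3 above without overlap, against 15.6% and 14.3% of all genes. The median log2 change was 0.04. *Tmem119* had 461, 636 and 513 CPM at 72 h and 787, 447 and 835 CPM at 2 weeks against 1196, 1263 and 1257 CPM in NI mice. *Cx3cr1*, the gene that drives eGFP, had 1369.8, 2034 and 1619.5 CPM and 1198, 1821 and 1509 CPM. *Sall1*, a transcription factor of microglia, had 239.5, 201 and 249 CPM and 275, 262 and 239.7 CPM. Neither *Tmem119* nor *Sall1* had a sample at 2 weeks within its NI range of 1196, 1263 and 1257 and 369, 383 and 375 CPM. Over all 30 members the median log2 change against NI mice was smaller, at -0.31 at 72 h and -0.27 at 2 weeks. Their summed level was 55609 to 62332 CPM at 2 weeks and 61264 to 71213 CPM in NI mice. By limma none of 22 lineage transcription factors, 16 Toll-like receptor genes, 20 cytokine receptors, 15 C-type lectins and 7 Fc receptors was called, with 7, 3, 4, 6 and 2 at an unadjusted p under 0.05. Both edgeR tests called 1 lineage factor higher, and the likelihood ratio test and DESeq2 called 1 C-type lectin lower.

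**Figure D4:**
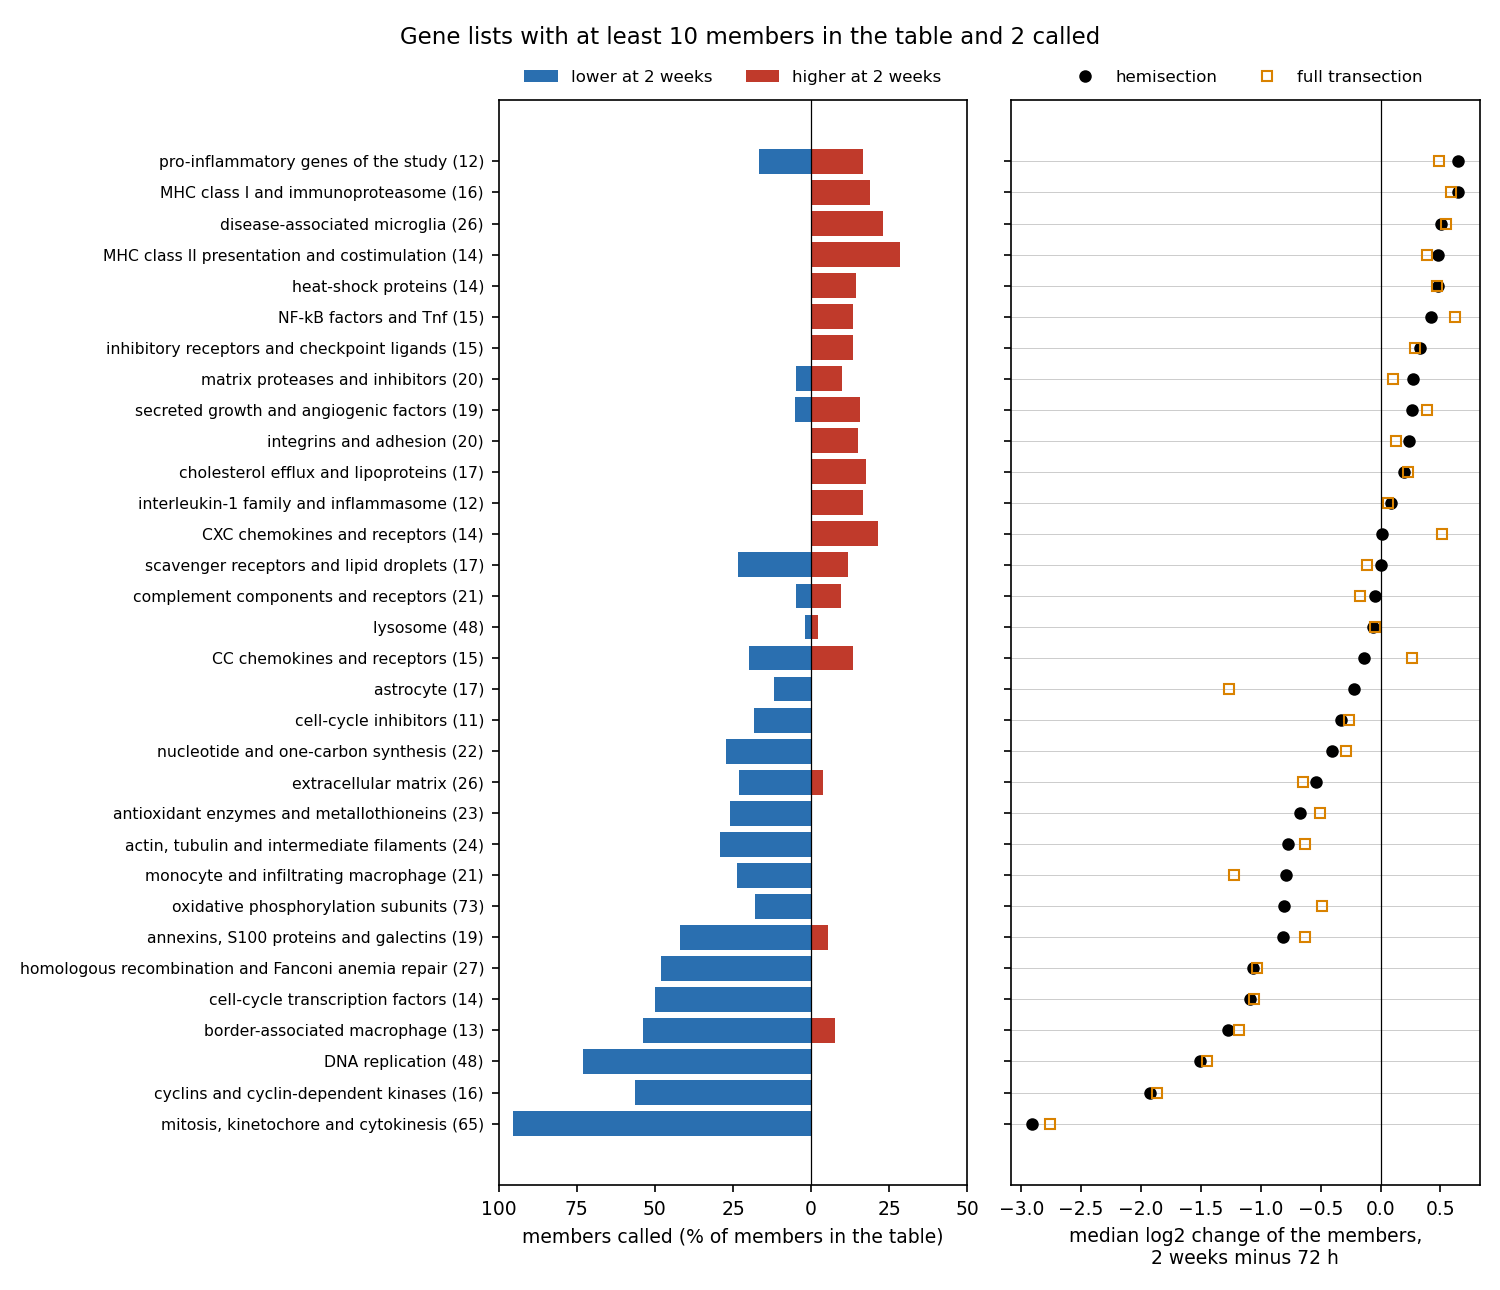
Rows are gene lists with at least 10 members in the table (number in brackets) and at least 2 called. The left panel gives the share of members called lower (blue) or higher (red) at 2 weeks after HS, and the right panel the median log2 change of all members after HS (black) and after FT (orange). The mitotic list is lowest, with 62 of 65 members called.

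Genes of other macrophages moved with the comparison. Of 21 genes of monocytes and infiltrating macrophages 5 were called lower, *Arg1* among them. The summed level of the 21 was 1698 to 1986 CPM at 72 h and 893 to 1119 CPM at 2 weeks. Of 13 genes of border-associated macrophages, which line the meninges and vessels, 7 were lower and 1 higher, with summed levels of 1127 to 1460 CPM and 490 to 527 CPM. *Cbr2* had 50.7, 37.8 and 25.01 CPM at 72 h and 3.43, 4.92 and 7.37 CPM at 2 weeks (log2 change -2.74 ± 0.28, adjusted p = 6.30e-07), and *Lyve1* had 5.15, 7.16 and 11.3 CPM and 1.56, 1.07 and 0.725 CPM. *F13a1*, which is in both lists, had 62.8, 53.4 and 51.5 CPM and 11.1, 12.2 and 10.5 CPM. NI samples had 45.6, 33.7 and 29.4 CPM of it, above all samples at 2 weeks. The part of such cells in the falls described above was not tested. Lymphocyte genes had a summed level of 62.4 to 68.9 CPM at 72 h and 54.3 to 63.9 CPM at 2 weeks, with none of 18 called by limma, edgeR or DESeq2 (1 at an unadjusted p under 0.05) and *Cd3e* at 0.628, 0.188 and 0.4100 CPM and 0.624, 0.641 and 0.483 CPM.

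Neutrophil genes had higher levels at 2 weeks than at 72 h. Their summed level was 469 to 662 CPM at 72 h, 831 to 990 CPM at 2 weeks and 789 to 843 CPM in NI mice. Most of it came from *Csf3r* (438, 634 and 607 CPM, then 829, 733 and 836 CPM), so the sum mainly follows that gene. Of 13 members 11 had a positive log2 change, 7 lay above without overlap (14.3% of all genes did) and the median was 1.51. Against NI mice the median log2 change of the list was -1.37 at 72 h and 0.14 at 2 weeks. *Camp* was called higher by limma, and the call was lost when any 1 of 5 samples was left out (all but HS 72 h replicate 1). The edgeR quasi-likelihood test and DESeq2 called 2 members higher and the likelihood ratio test 5. *Ngp*, a granule protein gene, had 5.55, 2.54 and 1.44 CPM at 72 h and 44.8, 26.7 and 5.92 CPM at 2 weeks. The part of such cells in the rises described above was not tested. *S100a8* had 4.95, 3.67 and 2.87 CPM at 72 h and 23.9, 23.7 and 9.18 CPM at 2 weeks and was not called. Astrocyte genes differed between libraries, with 2 of 17 called lower. *Gfap*, the filament of astrocytes, fell from 330.3, 184 and 134 CPM to 36.2, 45.3 and 52.9 CPM (log2 change -2.17 ± 0.33, adjusted p = 1.25e-04) and *Aldh1l1* from 13.2, 10.6 and 7.79 CPM to 1.72, 2.99 and 5.07 CPM. *Aqp4* had 22.5, 20.9 and 10.5 CPM and 1.25, 16.5 and 8.33 CPM and was not called, and the summed level of 17 astrocyte genes was 906 to 1209 CPM at 72 h and 532 to 1119 CPM at 2 weeks, lowest in replicate 1. *Serpina3n*, a gene of reactive astrocytes, had 61.96, 20.5 and 14.97 CPM and 0.468, 11.97 and 11.7 CPM, and its call was lost without HS 2 weeks replicate 1 or HS 72 h replicate 1 or 2. With *Gfap* and *Aldh1l1* it made 3 of the 5 astrocytic genes that the study itself listed, which is no independent evidence. No list of oligodendrocytes, neurons, endothelium, dendritic or red cells had more than 1 called member. *Cspg4* of oligodendrocyte precursors (8.95, 9.14 and 10.3 CPM, then 90.9, 22.9 and 34.2 CPM) and the endothelial *Flt1* (5.58, 7.63 and 5.13 CPM, then 27.4, 24.2 and 16.2 CPM) were higher. *Sox10* and *Cldn5*, which mark oligodendrocytes and endothelium, were not called, with log2 changes of -0.03 and -0.23.

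Outside the lists, the 12 largest falls with non-overlapping groups and a mean of at least 5 CPM in the higher group were the following. *Knstrn*, *Esco2*, *Cdkn3*, *Psrc1*, *Tacc3*, *Asf1b*, *Fignl1*, *Shcbp1*, *Fam64a* and *1190002F15Rik* had log2 changes from -3.50 to -2.82. The other members were *Sfrp4* (-3.27) and *Fstl1* (-2.97), secreted proteins of connective tissue. *Sfrp4* had 35.3, 1.22 and 9.43 CPM at 72 h and 0.312, 0.641 and 0.242 CPM at 2 weeks, with the first replicate far above the others. Among the 12 largest rises, *Mcpt2* and *Tpsb2* are protease genes of mast cells. *Mcpt2* had 0.165, 0 and 0.4100 CPM and 7.64, 4.06 and 7.25 CPM, where the 0 allows up to 0.283 CPM (3 reads), and *Tpsb2* had 0.0661, 1.602 and 0.4100 CPM and 2.49, 5.77 and 7.61 CPM. The call of *Tpsb2* was lost without HS 72 h replicate 1, and reads may be split between close copies of these proteases. *Slamf8*, a receptor of activated macrophages, had 21.5, 32.4 and 23.8 CPM and 77.8, 108 and 115 CPM (log2 change 1.94 ± 0.21, adjusted p = 1.32e-06). *Rxrg*, a retinoid receptor, had 2.71, 3.204 and 2.87 CPM and 15.1, 12.8 and 11.96 CPM. *Slc45a3*, *Ly6i*, *H2-Q5*, *Madcam1*, *1300002K09Rik*, *2210039B01Rik*, *Phxr4* and *Pianp* made up the rest, with log2 changes between 1.97 and 2.87.

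The samples at 1 week were also set beside those at 2 weeks. Between 1 and 2 weeks after HS 2 genes were called (0.0119% of all genes), against 797 from 72 h to 2 weeks. At an unadjusted p under 0.05 (limma) there were 789 genes, a share of all genes below 0.05. The group at 1 week had 2 samples. The called genes were *Postn*, higher at 2 weeks, and *Serpinb7*, which is in no list and is named after its values were seen, with 3.68 and 3.01 CPM at 1 week and 0.468, 0.214 and 0.362 CPM at 2 weeks. *Plk1* had 1.91 and 1.32 CPM at 1 week, *Rrm2* 6.400 and 5.29 CPM and *Mcm5* 19.5 and 15.3 CPM. The samples at 1 week were all below the lowest sample at 72 h in these genes. *Cxcl9* had 4.63 and 3.73 CPM at 1 week and *Itgax* 71.9 and 71.6 CPM, in both cases between the samples at 72 h and those at 2 weeks.

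The same interval was measured after FT in separate samples. From 72 h to 2 weeks after FT 640 genes were called (3.81%), 450 lower and 190 higher. Of the 797 genes called after HS, 784 had the same sign after FT, and the median log2 change of the 567 lower genes was -1.23 after FT and -1.44 after HS, by which they were chosen. The mitotic list had a median of -2.76 after FT and the replication list -1.45. The change after FT minus the change after HS was then tested for each gene. Of 16810 genes 0 (0%) were called (limma, smallest adjusted p = 0.99993), with 435 at an unadjusted p under 0.05. That is a share of all genes below 0.05, the share expected if no gene differed. The SE of this difference was larger than that of the change after HS, at 0.29 against 0.21 for *Slamf8* and 0.88 against 0.62 for *Sfrp4*. The absence of calls is therefore no evidence of equal change. On recovered reads, 0 genes were called by the quasi-likelihood test of edgeR, by its likelihood ratio test or by DESeq2, with 395, 416 and 317 genes at an unadjusted p under 0.05. *Plk1* changed by -3.89 on the log2 scale after FT, *Itgax* by 2.65 and *C3* by 2.76. The class II genes were picked after their values were seen, with *H2-Aa* at 0.01 and *H2-Eb1* at -0.07 after FT against 1.53 and 1.45 after HS (adjusted p of the difference = 1 and 1). For *Arg1* the values were -4.32 after FT and -2.85 after HS (adjusted p of the difference = 1).

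**Figure D5:**
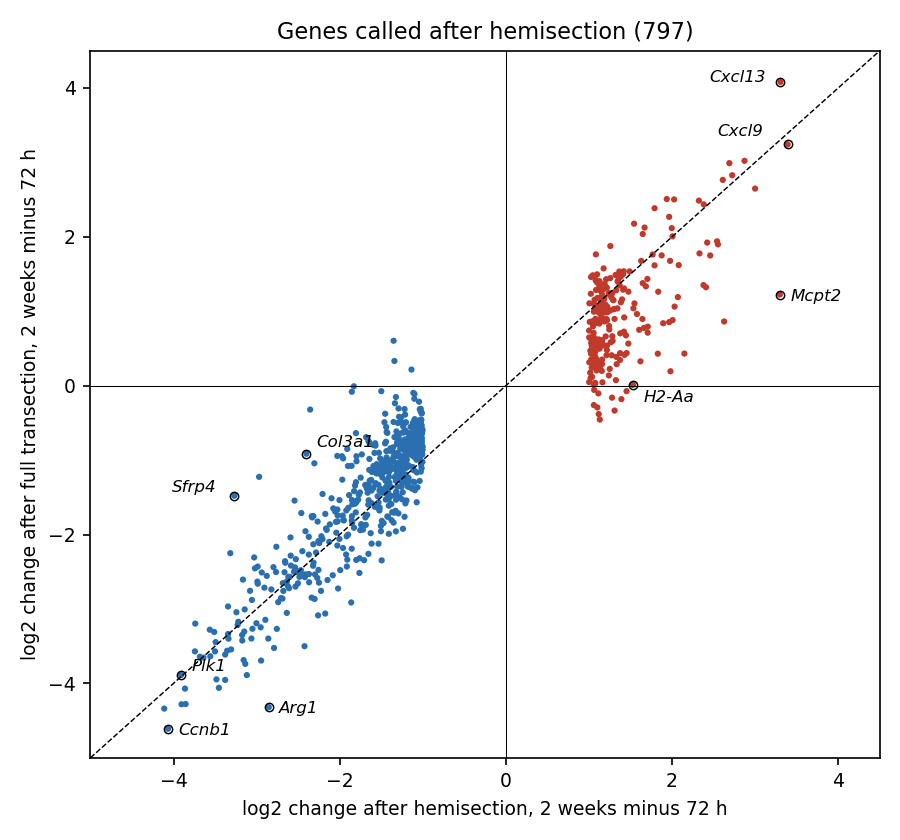
Each point is 1 of the 797 genes called after HS, with its log2 change from 72 h to 2 weeks after HS on the horizontal axis and after FT on the vertical axis. The dashed line marks equal change, and 784 points lie in the lower left (564) or upper right (220).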

How the data were processed

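RNA from sorted eGFP-high spinal cord cells was sequenced in 20 samples. The authors trimmed reads, aligned them to mm10 with TopHat2 2.0.9, counted them per gene with HTSeq 0.5.4p3, kept genes with at least 10 counts in at least 2 replicates, and deposited a normalized count (a signal in CPM, scaled by library size and edgeR factors). Strand use and sequencing batch are not given in the sources used here. Every one of the 336200 deposited values was a whole multiple of 1 read (tolerance 0.001 of a step), so reads could be recovered. Here, log2(CPM + 0.5) was fitted with limma 3.58.1 (R 4.3.3), with 1 mean per group and a trend, over all 20 samples. Genes were called at a Benjamini-Hochberg adjusted p under 0.05 and at least 2-fold. edgeR 4.0.16 and DESeq2 1.42.0 ran on recovered reads as alternatives. The limma and edgeR quasi-likelihood fits were also run on simulated data, with an outcome that is not reported here. The comparison and the gene lists were chosen with earlier results of these data known. Any listed gene could be named, sex-linked genes excepted. Outside the lists, the 12 largest rises and falls with non-overlapping groups and a mean of at least 5 CPM were named. Gene positions come from GENCODE, promoters from RefSeq. Depth was 4589874 to 34099232 reads in the 6 HS samples compared, and intervals for 0 cover counting error only. Some genes of the lists are counted but not reported here by name.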

Additional observations from a re-analysis of the deposited data

How the results depend on the processing

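From 72 h to 2 weeks after HS 797 genes were called, 230 higher and 567 lower. Leaving out 1 of the 6 samples gave 517 to 1074 genes, 127 to 334 higher and 390 to 740 lower. The lowest numbers came without HS 72 h replicate 1 (517) and the highest without HS 72 h replicate 3. Without a fold limit 1718 genes passed, 570 higher and 1148 lower. Higher genes numbered 148 with 1 CPM added before the log, 409 with columns scaled to 1 total and 435 with the edgeR likelihood ratio test. The cause was not tested. The edgeR quasi-likelihood test called 917 genes and DESeq2 966. The difference between FT and HS had 0 called genes in all alternatives. After the data were seen, a term for libraries with low *Rpl13* was added (859 genes), and the compared libraries with low *Rpl13* were left out (608 genes).

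The labels number the replicates alike in each group. Same-numbered samples of the groups compared had deviations from their group means that correlated at r = 0.013, 0.19 and 0.005, so the numbers were not taken to pair the samples, although both replicates 2, the pair with the highest value, have low *Rpl13*. A replicate block gave 799 genes. Of 141 named genes that were called, 87 were called in every alternative. No named gene changed direction past the threshold. HS 2 weeks had 4589874 to 8645472 reads, so genes near 0.5 CPM rest on few reads.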
